A study of Mus musculus with 12 samples.

Results

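The endoplasmic reticulum (ER) folds the proteins that a cell secretes. Here 10 genes of that machinery were followed in mouse podocyte cells given a plasmid for overexpression of Sparc, the gene of a secreted protein. The genes were taken by symbol: the chaperones Hspa5, Hsp90b1 and Calr, the disulfide isomerases Pdia3, Pdia4 and Pdia6, the co-chaperones Dnajb9 and Dnajb11, the transcription factor Xbp1 and the degradation factor Herpud1. All 10 were found among the 55487 genes of the deposited count table, and all 10 were among the 15734 genes abundant enough to be tested. The rule for choosing them uses no measured value, although it was written with earlier results of these data known. The comparison addresses whether a highly expressed transcript of a secreted protein goes with higher transcripts of this machinery. Only mRNA was sequenced, so the amount of SPARC protein made, held in the ER or secreted was not measured.

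The cells were MPC5, an immortalized mouse podocyte line labelled wild type, grown in DMEM with fetal bovine serum. Podocytes are the kidney epithelial cells whose foot processes wrap the capillaries of the glomerulus. In the SPARCoe group the cells had received a plasmid for overexpression of Sparc, and in the vector group the empty plasmid; each group had 6 mRNA-seq libraries, made 24 hours after transfection. The sources used here do not give the plasmid's promoter, its dose or the share of cells that took it up. Whether the 6 libraries of each group are separate transfections is not stated in the labels; the spread behind each p-value may therefore be technical.

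Secreted proteins enter the ER unfolded and are held by chaperones until they have folded, formed their disulfide bonds and received their sugar chains. When unfolded protein builds up, the ER membrane sensors IRE1 (gene Ern1), PERK (gene Eif2ak3) and ATF6 start the unfolded protein response, in which ATF6 and the spliced form of XBP1 raise chaperone, isomerase and degradation genes. In the glomerulus this response is best known from podocytes that make misfolded slit-diaphragm or collagen IV proteins. SPARC itself is a collagen-binding, disulfide-bonded glycoprotein that leaves the cell through this route.

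The response acts on many of these genes through the ER stress response element (ERSE), which joins CCAAT and CCACG across a gap of 9 bases, and through ERSE-II, which joins ATTGG and CCACG across a gap of 1 base. Both were searched on both strands of the RefSeq promoter windows of GRCm38.p6, which run from 250 bases before each annotated start to 50 after it. All 10 genes had a window, and 6 of the 10 held ERSE or ERSE-II, against 0.155% of all 32851 windows. The 6 are a count of genes and the share is one of windows. Because the response is already known to act on many of these genes through these elements, the matches give no independent support. ERSE was found in 4 of them (0.119% of all windows) and ERSE-II in 2 (0.0365% of all windows). The 8-letter core TGACGTGG was in none of the 10 windows and in 0.676% of all windows. A match is a description of letters, not of binding, and the windows of Pdia3, Pdia4, Dnajb9 and Xbp1 held no match to ERSE or ERSE-II within these bounds.

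The Hspa5 promoter is shown at length because Hspa5 is the standard readout of this response, and the other matches with their flanks because they show which bases the genes share. Capitals mark the ERSE or ERSE-II match, each sequence reads 5′ to 3′ on the strand of the gene, and all are from RefSeq on GRCm38.p6. In Hspa5 the element lies 65 to 47 bases before the RefSeq start, in a stretch that GENCODE M21 annotates as an exon of a longer Hspa5 transcript. Hsp90b1 holds ERSE once on its own strand (212 to 194 bases before the start) and once on the opposite strand (107 to 89 bases before). Calr holds it on the opposite strand, 162 to 144 bases before the start, and Pdia6 on its own strand, 98 to 80 bases before. On the opposite strand the capitals read CGTGG first and ATTGG last. The ERSE-II match of Herpud1 lies 52 to 42 bases before the start, inside the antisense gene Gm15890, and that of Dnajb11 lies in the first exon, 7 to 17 bases after the start. In M21 the matches of Hsp90b1, Calr and Pdia6 lie in no gene.
Hspa5, chr2:34771840-34772089, + strand: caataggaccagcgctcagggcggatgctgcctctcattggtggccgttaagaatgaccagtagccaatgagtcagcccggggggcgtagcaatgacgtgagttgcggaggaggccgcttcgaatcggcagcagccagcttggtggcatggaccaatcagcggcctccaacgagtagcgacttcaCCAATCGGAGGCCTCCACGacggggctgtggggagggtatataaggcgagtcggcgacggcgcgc
Hsp90b1, chr10:86705623-86705671, − strand: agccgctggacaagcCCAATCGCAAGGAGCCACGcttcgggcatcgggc
Hsp90b1, chr10:86705518-86705566, − strand: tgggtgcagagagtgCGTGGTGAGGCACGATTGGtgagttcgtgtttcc
Calr, chr8:84847060-84847108, − strand: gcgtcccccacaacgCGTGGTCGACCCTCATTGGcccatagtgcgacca
Pdia6, chr12:17266476-17266524, + strand: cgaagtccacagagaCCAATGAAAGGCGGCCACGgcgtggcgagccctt
Herpud1, chr8:94386362-94386402, + strand: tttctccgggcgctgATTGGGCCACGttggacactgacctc
Dnajb11, chr16:22857844-22857870, + strand: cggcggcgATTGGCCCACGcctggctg

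Library totals ran from 34927871 to 47380987 counts in SPARCoe and from 33051035 to 47296258 in vector. Sparc (chr11:55394500-55423183 in M21), the overexpressed gene, had a lowest, median and highest level of 9751, 10080 and 10520 CPM in SPARCoe, against 741, 748 and 772 CPM in vector (CPM, counts scaled to library size with TMM factors). It was 13.5-fold higher (log2 fold change 3.75 ± 0.018 SE, edgeR adjusted p = 6.69e-61), which matches the labels, although counts per gene cannot separate plasmid from endogenous transcripts. Sparc took 1.01% ± 0.0229 of all counts in SPARCoe and 0.0751% ± 0.00134 in vector (SD, n = 6 each).

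Of 12 podocyte markers, 8 were tested, and the others, with the slit-diaphragm gene Nphs1, Wt1 and Ptpro among them, were too low to test. All 12 together summed to 2788 to 2882 CPM in SPARCoe and 3110 to 3214 CPM in vector, with 2 called higher (Podxl among them) and 4 lower (Synpo, Kirrel, Nes and Actn4). Beside these and the marker counts that follow, 14.9% of all tested genes were called higher and 14.1% lower (edgeR adjusted p under 0.05). Among genes with a mean of at least 100 CPM the shares were 15.9% and 30.2%. Of 9 proximal tubule markers, 5 were tested (Lrp2, Cubn, Aqp1, Pax8 and Pax2) and all 5 were called lower, with summed levels of 470.7 to 493.9 CPM in SPARCoe and 619.0 to 651.5 CPM in vector, and 3 of 6 mesangial or fibroblast markers (Pdgfrb, Acta2 and Col1a1) were called lower (92.28 to 100.7 CPM in SPARCoe, 129.6 to 141.1 CPM in vector). Endothelial and leukocyte markers summed to at most 3.308 and 20.89 CPM in SPARCoe and at most 2.931 and 22.07 CPM in vector. Emcn had no count in any library, and Itgam, Hnf4a, Ptpro and Nphs1 had none in vector. The part of these shifts in the results that follow was not tested. All libraries are labelled as the MPC5 line, so the markers are not read here as numbers of cell types. In bulk libraries, fewer cells that express a marker and less of its RNA per cell cannot be told apart.

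None of the 10 ER genes was called higher in SPARCoe, and 1, Xbp1, was called lower (edgeR quasi-likelihood test, adjusted p under 0.05). Over all tested genes 14.9% were called higher and 14.1% lower. At an unadjusted edgeR p under 0.05, 0 of the 10 were higher and 3 (Xbp1, Herpud1 and Pdia4) lower. The share of all tested genes under that limit was not taken, so these counts have none beside them. By an exact two-sided permutation of the libraries, Xbp1 and Herpud1, lower, and Dnajb9, higher (p = 0.0368), were under 0.05. Pdia4 was not (permutation p = 0.126). DESeq2, limma-voom and limma on FPKM also called 0 higher at an adjusted p under 0.05. The log2 fold changes ran from -0.13 for Xbp1 to 0.10 for Dnajb9, with a median of -0.02 against -0.0033 over all tested genes. The 95% intervals of all 10 differences lay between 0.872-fold and 1.18-fold. For 9 of the 10, all but Dnajb9, the upper bound was at most 1.04-fold.

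The 10 genes together held 0.569% ± 0.00778 of all counts in SPARCoe and 0.576% ± 0.0120 in vector (SD, n = 6 each). Their summed level was 5622.7 to 5781.8 CPM in SPARCoe and 5607.8 to 5916.8 CPM in vector, so the groups overlapped. Measured per length, Sparc stood at 1.81 ± 0.0649 times the summed FPKM of the 10 genes in SPARCoe, against 0.133 ± 0.0016 times in vector (SD, n = 6 each). The ratio of Sparc to these ER genes thus differed between groups by about the same factor as Sparc itself. It takes the same length for Sparc in both groups. The length of the plasmid's transcript is not given, so the ratio per transcript in SPARCoe is uncertain.

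**Figure D1:**
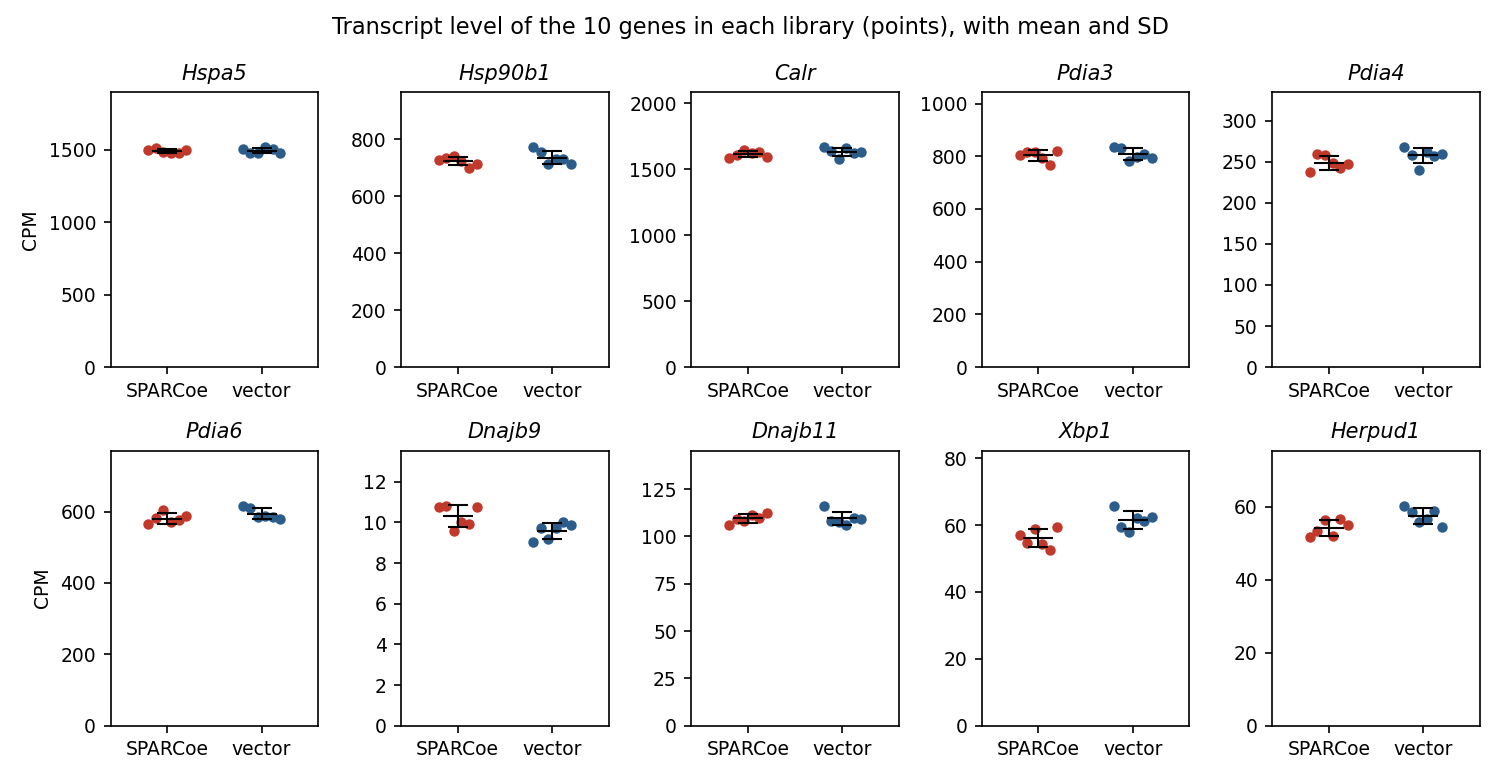
Level of each of the 10 genes in every library, in CPM on axes that start at 0, with SPARCoe on the left and vector on the right; the cross bars are the mean and SD of 6 libraries. The 2 groups overlap in every panel, and the SPARCoe points of Xbp1 and Herpud1 all lie below the vector median.

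Hspa5 (BiP, the ER Hsp70, which also holds the stress sensors inactive; chr2:34771970-34777547) had a lowest, median and highest level of 1475, 1492 and 1513 CPM in SPARCoe, against 1477, 1490 and 1517 CPM in vector. The ranges nearly coincided, and 3 of 6 SPARCoe libraries lay on each side of the vector median. The log2 fold change was -0.0017 ± 0.016 SE (edgeR adjusted p = 0.959), with a 95% interval of 0.977-fold to 1.02-fold. Its coefficient of variation was 1.02% in SPARCoe and 1.14% in vector, and 376915 counts in SPARCoe and 363390 in vector lay behind these levels. The interval is thus narrow: a rise of Hspa5 by more than 1.02-fold lies outside it.

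Hsp90b1 (GRP94, the ER form of Hsp90; chr10:86690209-86705509) ran from 699.5 to 739.6 CPM in SPARCoe, with a median of 724.2, and from 711.5 to 772.3 CPM in vector, with a median of 729.6. Calr (calreticulin, a calcium-binding chaperone for glycoproteins; chr8:84841850-84846934) ran from 1589 to 1645 CPM in SPARCoe, with a median of 1618, and from 1581 to 1669 CPM in vector, with a median of 1633. Both overlapped between groups. The edgeR intervals were 0.956-fold to 1.01-fold for Hsp90b1 (adjusted p = 0.385) and 0.967-fold to 1.01-fold for Calr (adjusted p = 0.521).

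The 3 disulfide isomerases form and reshuffle the disulfide bonds of new proteins. Pdia3 (ERp57, the partner of calreticulin and calnexin; chr2:121413775-121438687) averaged 803.2 ± 19.8 CPM in SPARCoe and 808.2 ± 21.6 CPM in vector (SD, n = 6 each). Pdia6 (P5; chr12:17266545-17284770) averaged 580.5 ± 14.1 CPM in SPARCoe and 593.9 ± 15.1 CPM in vector. Neither was called, with edgeR adjusted p-values of 0.792 for Pdia3 and 0.225 for Pdia6 and upper bounds of 1.02-fold and 1.004-fold. Pdia4 (ERp72; chr6:47796141-47813430) ran from 238 to 259.8 CPM in SPARCoe, with a median of 247.5, and from 240.2 to 267.9 CPM in vector, with a median of 259.1. In 5 of 6 SPARCoe libraries it was below the vector median, and the groups overlapped. Its log2 fold change of -0.05 ± 0.024 SE missed the threshold (edgeR adjusted p = 0.117; interval 0.934-fold to 0.999-fold), and leaving out vector replicate 3, the lowest vector library for Pdia4, gave -0.07 and an adjusted p of 0.0247.

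The co-chaperones bring unfolded protein to BiP. Dnajb9 (ERdj4, which also restrains IRE1; chr12:44205559-44210326) was the scarcest of the 10, with a lowest, median and highest level of 9.586, 10.39 and 10.83 CPM in SPARCoe, against 9.05, 9.726 and 10.04 CPM in vector. It was above the vector median in 5 of 6 SPARCoe libraries, and the groups overlapped. Its log2 fold change of 0.10 ± 0.066 SE was not called (edgeR adjusted p = 0.27; interval 0.979-fold to 1.18-fold), and the exact two-sided permutation p over all 924 assignments, not adjusted for the 10 genes, was 0.0368. Dnajb11 (ERdj3; chr16:22857845-22879634) averaged 109.5 ± 2.21 CPM in SPARCoe and 109.5 ± 3.56 CPM in vector (SD, n = 6 each), with an edgeR interval of 0.965-fold to 1.04-fold and an adjusted p of 0.993.

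Xbp1 (chr11:5520659-5525893), whose mRNA is cut by IRE1 to give the active transcription factor, had a lowest, median and highest level of 52.6, 55.95 and 59.47 CPM in SPARCoe, against 58.03, 61.54 and 65.85 CPM in vector. All 6 SPARCoe libraries lay below the vector median, although 2 of them lay above the lowest vector library. Xbp1 fell to 0.915-fold of vector (log2 fold change -0.13 ± 0.034 SE, edgeR adjusted p = 0.00317; interval 0.872-fold to 0.960-fold), and the exact two-sided permutation p was 0.00866, where 0.00216 is the smallest the design allows. The fall did not pass a test against a 1.2-fold change (glmTreat), which 0 of the 10 genes and 6.3% of all tested genes passed. Counts per gene do not separate spliced from unspliced Xbp1, so the activity of IRE1 was not measured.

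Herpud1 (HERP, an ER membrane protein of the degradation complex; chr8:94386438-94395377) had a lowest, median and highest level of 51.54, 54.14 and 56.64 CPM in SPARCoe, against 54.52, 57.53 and 60.28 CPM in vector. All 6 SPARCoe libraries lay below the vector median and the groups overlapped. The log2 fold change was -0.08 ± 0.033 SE (edgeR adjusted p = 0.0537), just outside the threshold; the exact two-sided permutation p was 0.0325. Leaving out SPARCoe replicate 3, SPARCoe replicate 5 or vector replicate 6 brought the adjusted p to 0.0431, 0.0262 or 0.0281.

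**Figure D2:**
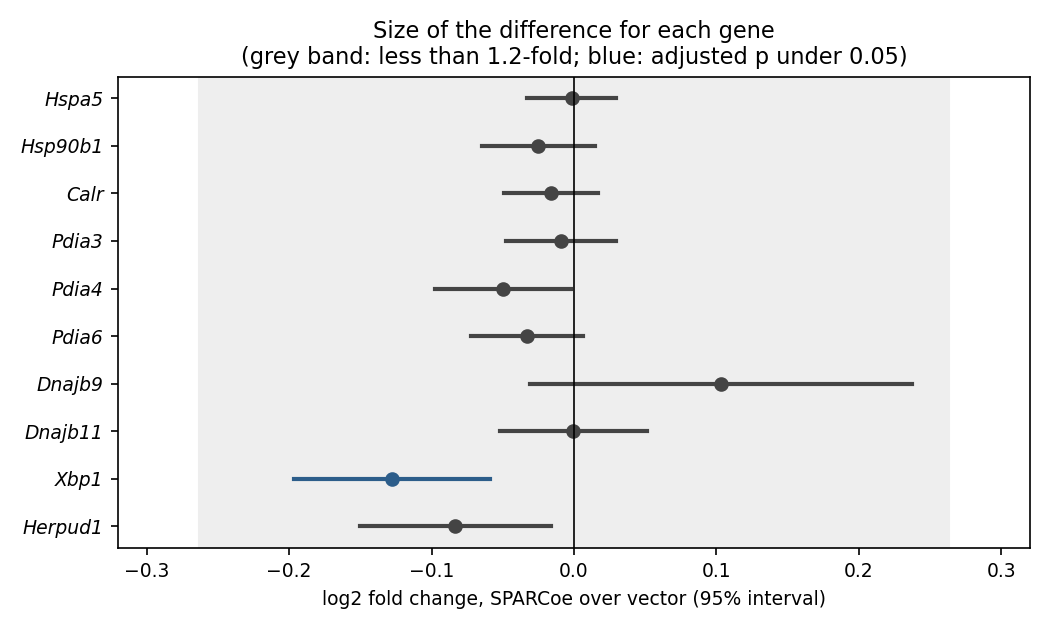
log2 fold change of SPARCoe over vector for each of the 10 genes (points) with its 95% interval from edgeR (bars); the grey band marks differences under 1.2-fold and blue marks an adjusted p under 0.05. All 10 intervals lie inside the band, Xbp1 alone is blue, and Dnajb9 alone has its point above 0, at 0.10 with an interval that crosses 0.

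The 10 genes were measured with different precision. The coefficient of variation within a group was lowest for Hspa5 and highest for Dnajb9 in SPARCoe, at 5.2%, and for Xbp1 it was 4.84% in SPARCoe and 4.37% in vector. Counts summed over a group ran from 2600 in SPARCoe and 2338 in vector for Dnajb9 to 409038 in SPARCoe and 397663 in vector for Calr. Standard errors of the log2 fold change ran from 0.016 for Hspa5 to 0.066 for Dnajb9, so a smaller change could be seen in Hspa5 than in Dnajb9. For the genes not yet given one, the exact two-sided permutation p was 0.835 for Hspa5, 0.31 for Hsp90b1, 0.275 for Calr, 0.697 for Pdia3, 0.126 for Pdia4, 0.139 for Pdia6 and 1.0 for Dnajb11, none adjusted over the genes.

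None of the 10 genes had groups that did not overlap, against 15.6% of all tested genes. The 10 genes are more abundant than most: 7 had a mean of at least 100 CPM. Among all 2503 tested genes at that level, 15.9% were called higher and 30.2% lower, with a median log2 fold change of -0.02. One library recurred in these values: vector replicate 1 was the highest vector library for 8 of the 10 genes. Without it, the log2 fold changes of Hspa5, Pdia3 and Dnajb11 were 0.003, 0.0032 and 0.02, none called, and Xbp1 stayed lower at -0.10 (edgeR adjusted p = 0.0191).

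**Figure D3:**
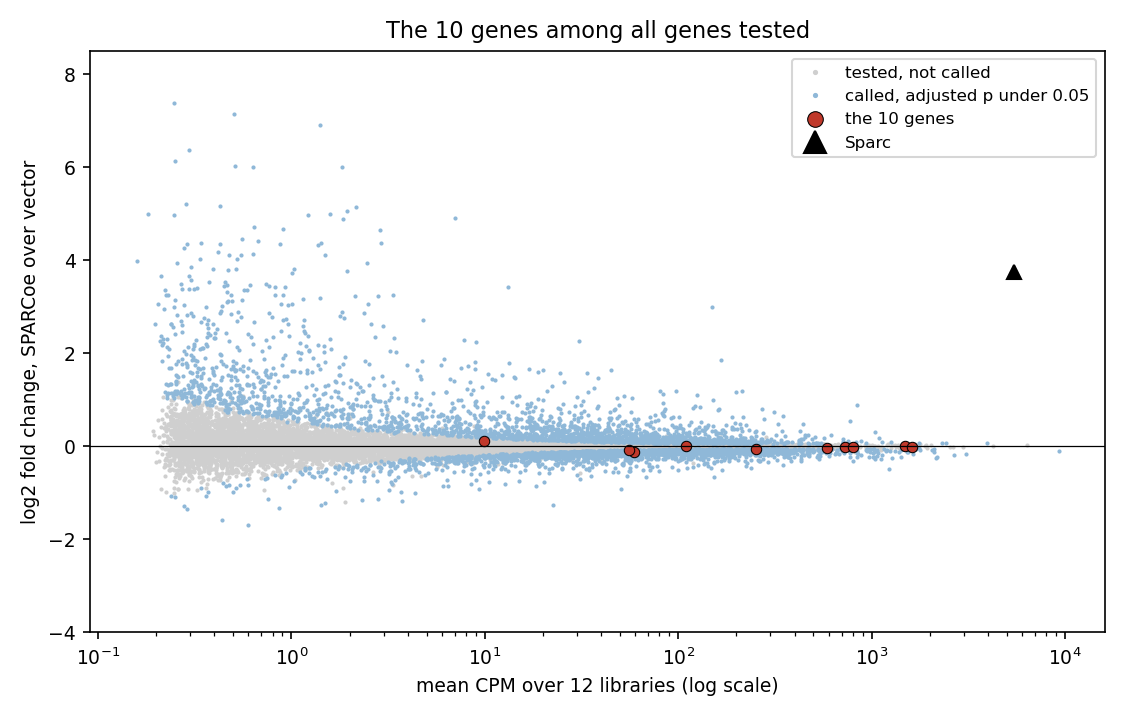
log2 fold change of SPARCoe over vector against mean CPM over the 12 libraries (log scale) for the 15734 tested genes; grey points were not called, blue points had an edgeR adjusted p under 0.05, red points are the 10 ER genes and the triangle is Sparc. The red points lie along 0, between -0.13 and 0.10, while Sparc stands at 3.75.

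Per length, the order of the 10 genes was the same in both groups. On the deposited FPKM scale Calr came first, with 1373 ± 19.6 FPKM in SPARCoe and 1388 ± 29.9 in vector (SD, n = 6 each). Hspa5 followed with 1051 ± 12.3 FPKM in SPARCoe and 1052 ± 15.2 in vector, then Pdia3 with 693.8 ± 19.1 in SPARCoe and 698.0 ± 19.7 in vector. These 3 were separated from each other and from the next gene in every library. Hsp90b1 (446.2 ± 10.5 FPKM in SPARCoe, 454.0 ± 15.8 in vector) and Pdia6 (437.8 ± 11.7 FPKM in SPARCoe, 447.9 ± 12.4 in vector) were not separated. Pdia4, at 181.1 ± 6.47 FPKM in SPARCoe and 187.5 ± 7.03 in vector, and Dnajb11, at 65.83 ± 1.27 in SPARCoe and 65.84 ± 2.20 in vector, held the sixth and seventh place. Herpud1 (48.41 ± 1.94 FPKM in SPARCoe, 51.33 ± 2.03 in vector) and Xbp1 (45.10 ± 2.31 FPKM in SPARCoe, 49.29 ± 2.22 in vector) were again not separated, and Dnajb9 was last at 7.251 ± 0.376 FPKM in SPARCoe and 6.741 ± 0.269 in vector. Abundant lumenal chaperones thus stood far above the transcription factor and the scarce co-chaperone.

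Sparc, at 7882 ± 178 FPKM in SPARCoe and 585 ± 10.4 in vector (SD, n = 6 each), ranked above all 10 genes in SPARCoe, and between Pdia3 and Hsp90b1 in vector. It stood at 7.502 ± 0.229 times Hspa5 in SPARCoe and 0.556 ± 0.00792 times in vector. The length behind each FPKM value was shorter than the merged exon length in GENCODE M21 (1418 against 4229 bases for Hspa5, 1283 against 3788 for Sparc). With M21 lengths the order of the 10 genes was the same and Sparc stood at 7.58 times Hspa5 in SPARCoe and 0.562 times in vector. Neither length of Sparc is known to be that of the plasmid's transcript, so its levels per length in SPARCoe are uncertain.

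**Figure D4:**
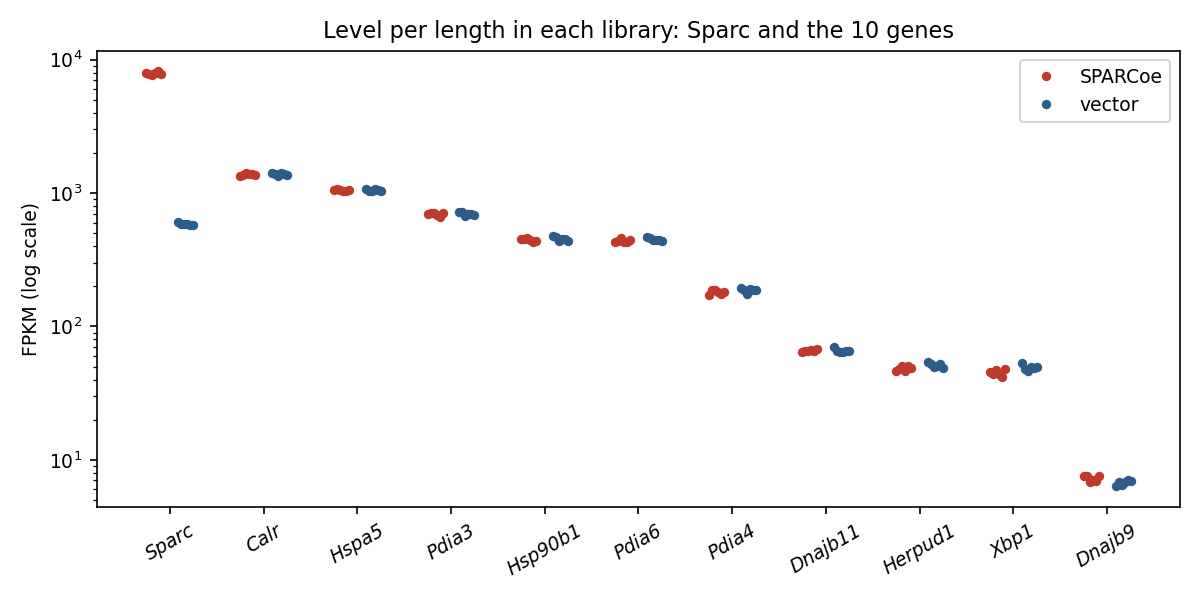
Level per length (FPKM, log scale) of Sparc and the 10 ER genes in each library, ordered by the vector mean with Sparc first; SPARCoe points are red and vector points blue. In SPARCoe Sparc stands above Calr and in vector just below Pdia3, while the 10 genes keep their places.

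Some of the 10 genes varied together among libraries of one group. With log2 CPM centred within each group, the 21 pairs of the 7 genes at 100 CPM or more had a median Pearson correlation of 0.44 over the 12 libraries, from 0.041 to 0.841, against a median of 0.022 over all pairs of the 2503 genes at that level. The closest pair was Hsp90b1 and Pdia3, at 0.841. All these points share the libraries, their depth and their scaling, so the values are descriptions. The gene closest to Hspa5 among 9125 genes at 10 CPM or more was Dnajc3 (p58IPK, another co-chaperone of BiP) at 0.888 over 12 libraries, followed by Plekha8 at 0.842, Vps29 at 0.840, Evc at 0.831 and H3f3a at 0.825. Of the 8 others of the 10 at that level, the nearest to Hspa5 was Xbp1, at 0.458 and rank 610. Dnajb9, whose mean lay just under that level, was at 0.463 with Hspa5.

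Because the strand setting of the counting is not given, reads from overlapping genes cannot be assigned to one of them. In M21 the antisense genes Gm30505 and Gm15890 overlap Dnajb11 and Herpud1, Catsper2 overlaps Pdia3 and Atp6v1c2 overlaps Pdia6. A pseudogene, a miRNA gene and the processed transcript Gm15344 lie over Hsp90b1. Gm15344 is on the strand of Hsp90b1, so a strand setting would not separate them. The miRNA genes Mir704 and Mir5627 lie over Pdia4 and Dnajb9. Hspa5, Calr, Xbp1 and Sparc overlap no other gene. M21 also lists a processed pseudogene of Calr (Calr-ps, chr2:140955765-140956249), which had 1 count over the 12 libraries.

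Other genes with these promoter elements were also followed. In all, 49 gene symbols had ERSE or ERSE-II in the window, 46 were in the count table and 29 were tested, among them 6 of the 10 genes. Of these 29, 1 (3.45%) was called higher, 4 (13.8%) lower and 24 neither, beside 14.9% higher and 14.1% lower over all tested genes, with a median log2 fold change of -0.02; the 6 were all among those not called. The one called higher was Acacb (acetyl-CoA carboxylase beta), at 2.164 ± 0.255 CPM in SPARCoe and 1.256 ± 0.288 CPM in vector (SD, n = 6 each; log2 fold change 0.77 ± 0.16 SE, edgeR adjusted p = 0.000218). The 4 called lower, Adcy3, Lgalsl, Gm46430 and Krtcap2, ran from -0.25 to -0.08 on the log2 scale, and Krtcap2 was not called without SPARCoe replicate 3 (edgeR adjusted p = 0.0524) or vector replicate 3 (0.0593).

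The rest of the ER folding machinery was followed through a list of 45 other chaperones and folding enzymes, all tested. In SPARCoe 1 (2.22%) was called higher, 14 (31.1%) lower and 30 neither. Over all tested genes 14.9% were called higher and 14.1% lower, and over those at 100 CPM or more 15.9% and 30.2%. The median log2 fold change was -0.04, beside -0.02 for the 10 genes. The lower ones included Rcn2, a calcium-binding ER protein, at -0.18, Dnajc10, an ER disulfide reductase, at -0.13, Serpinh1 (HSP47, the collagen chaperone) at -0.12 and Ganab, a glucosidase that trims N-glycans, at -0.11 on the log2 scale. The one higher was Ero1a (Ero1l), the oxidase that recharges the isomerases, at 97.52 ± 6.05 CPM in SPARCoe and 86.57 ± 3.11 CPM in vector (SD, n = 6 each; log2 fold change 0.17 ± 0.032 SE, edgeR adjusted p = 5.61e-05). Hyou1, Sdf2l1, Creld2, Manf and Dnajc3, which the unfolded protein response raises along with Hspa5, were not called, at -0.0048, -0.0075, -0.01, -0.04 and -0.06 on the log2 scale; Dnajc3 was called lower without SPARCoe replicate 2 (edgeR adjusted p = 0.0352) or vector replicate 3 (0.0404).

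Of 31 other genes of ER-associated degradation, the route in which Herpud1 acts, 1 (3.23%) was called higher, 7 (22.6%) lower and 23 neither. The shares to set beside these are the same: 14.9% higher and 14.1% lower over all tested genes, 15.9% and 30.2% at 100 CPM or more. The median log2 fold change was -0.04, beside -0.08 for Herpud1. The mannosidase Man1b1 fell by 0.15, Aup1 by 0.14 and the adaptor Sel1l by 0.08 on the log2 scale; Sel1l was not called (adjusted p = 0.0877) when all genes were tested on log2(FPKM + 1). Edem1, a lectin of this route and a known XBP1 target, was higher by 0.11 (edgeR adjusted p = 0.0161), a call lost without SPARCoe replicate 1 (0.0816), without vector replicate 1 (0.0561) and on FPKM (0.0547 to 0.135). The count of 7 lower was 3 on log2(FPKM + 1) over all genes.

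Among 17 tested sensors and transducers of the response, 4 (23.5%) were called higher, 3 (17.6%) lower and 10 neither, beside 14.9% higher and 14.1% lower over all tested genes, with a median log2 fold change of -0.0022. Ern1, the gene for the IRE1 that cuts Xbp1 mRNA, was higher at 49.83 ± 2.65 CPM in SPARCoe, against 44.20 ± 1.64 CPM in vector (SD, n = 6 each; log2 fold change 0.17 ± 0.0365 SE, edgeR adjusted p = 0.000194), and the groups did not overlap. Eif2ak3, the gene for PERK, was lower by 0.17 on the log2 scale (edgeR adjusted p = 0.0104; 0.0808 on log2(FPKM + 1) over all genes), and Atf6 and Atf6b were not called, at -0.0076 and -0.0022. The CREB3 family, ER-membrane transcription factors, split: Creb3l1 rose 2.22-fold from a low level (4.525 ± 0.743 CPM in SPARCoe, 2.032 ± 0.275 CPM in vector), while Creb3 fell by 0.38 and Creb3l2 by 0.36 on the log2 scale. Nfyb, a subunit of the factor that binds the CCAAT part of ERSE, rose by 0.29, and the zinc-finger factor Yy1 by 0.09.

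The list of the PERK and ATF4 arm, 22 genes that act when translation is slowed, had 9 members (40.9%) called higher, 3 (13.6%) lower and 10 not called, beside 14.9% higher and 14.1% lower over all tested genes, with a median log2 fold change of 0.06. Its central factors were lower: Atf4 at 343.5 ± 3.93 CPM in SPARCoe and 410.1 ± 15.7 CPM in vector, and Ddit3 (CHOP) at 12.59 ± 0.855 CPM in SPARCoe and 15.11 ± 1.08 CPM in vector (SD, n = 6 each; edgeR adjusted p = 1.91e-13 and 0.000784). The other one lower was the death receptor Tnfrsf10b, at -0.10 on the log2 scale. That call was lost without SPARCoe replicate 2 (edgeR adjusted p = 0.0503) or vector replicate 3 (0.0697), and on log2(FPKM + 1) over all genes (limma adjusted p = 0.105). Those that rose most were Bbc3 (PUMA, a pro-apoptotic gene best known as a p53 target), 2.46-fold, Cebpb (a factor of inflammation and differentiation), 1.54-fold, and Sesn2 (a target of both p53 and ATF4), 1.39-fold. Some widely used ATF4 targets were also higher. Ddit4 rose by 0.36, Ppp1r15a (GADD34, which restarts translation) by 0.33 and the cystine transporter Slc7a11 by 0.32 on the log2 scale. Trib3 rose by 0.22, the serine synthesis enzyme Psat1 by 0.15 and the transcription factor Cebpg by 0.15 on that scale. Of these calls, that of Trib3 was lost without SPARCoe replicate 2 (edgeR adjusted p = 0.0713) or vector replicate 6 (0.062). It was also lost on log2(FPKM + 1) over all genes (limma adjusted p = 0.0744). The ATF4 targets Chac1 and Asns were not called, at 0.06 each on the log2 scale. Asns was called higher in 6 alternatives, with SPARCoe replicate 6 or vector replicate 6 left out among them. In the main fit Slc7a5 at 0.06, Slc3a2 and Atf5 at 0.05, Vldlr at 0.03 and Ppp1r15b at 0.01 were not called. Phgdh, Nupr1 and Eif4ebp1 were not called either, at -0.02, -0.06 and -0.0089.

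Of 34 genes of the translocon, signal peptidase and N-glycosylation, which act before the chaperones, 0 were called higher, 13 (38.2%) lower and 21 neither. Beside these stand 14.9% higher and 14.1% lower over all tested genes, and 15.9% and 30.2% at 100 CPM or more. The median log2 fold change was -0.05; Spcs3, a signal peptidase subunit, fell by 0.16, Dad1, of the oligosaccharyltransferase, by 0.15, and Srp68 and Spcs2 by 0.13 and 0.12. The count of 0 was the same at an unadjusted p under 0.05 in edgeR and in DESeq2 and limma-voom at an adjusted p under 0.05. Of 33 genes of ER to Golgi transport, 1 (3.03%) was called higher (Sec24a, at 0.21), 12 (36.4%) lower and 20 neither. The same shares stand beside these, and the median log2 fold change was -0.03. Kdelr1, the receptor that returns KDEL-tailed chaperones such as BiP to the ER, fell by 0.15, Ergic1 by 0.16 and Copa by 0.12 on the log2 scale. In these lists, as in those of folding enzymes and degradation, no called gene reached 1.2-fold.

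Chaperones outside the ER were listed too. Of 24 tested cytosolic and mitochondrial heat shock proteins and chaperonins, 7 (29.2%) were called higher, 3 (12.5%) lower and 14 neither, beside 14.9% higher and 14.1% lower over all tested genes, with a median log2 fold change of 0.03. The largest rise was that of Hspa1b, by 0.28 on the log2 scale (edgeR adjusted p = 5.89e-05). Hsph1 (HSP105) rose by 0.20, Dnajb1 (HSP40) by 0.17 and Hspd1 (mitochondrial HSP60) by 0.10 on that scale. Dnajb4 fell by 0.28, Hspb1 by 0.17 and Hspb8 by 0.13. The call of Hspb8 was lost on log2(FPKM + 1) over all genes (limma adjusted p = 0.077). Hsp90aa1 and Hsp90ab1, the cytosolic counterparts of Hsp90b1, were higher by 0.07 and 0.06, beside -0.03 for Hsp90b1 itself, and Hspa8, the cytosolic counterpart of Hspa5, was not called, at 0.0025. The difference between these lists and the 10 ER genes was not tested.

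**Figure D5:**
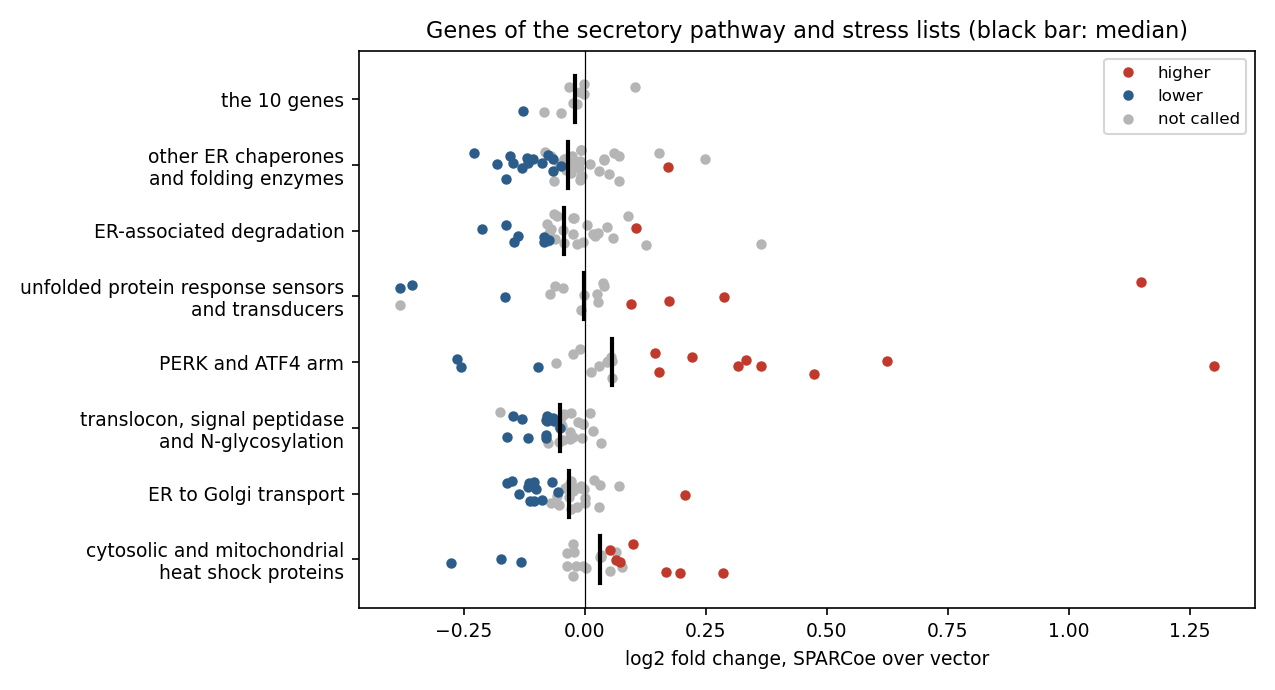
log2 fold change of SPARCoe over vector for every tested gene of the 10 ER genes and of the 7 pathway lists (points; red called higher, blue called lower, grey not called, edgeR adjusted p under 0.05), with the median of each list as a black bar. The medians lie between -0.05 and 0.06, and the points beyond 1 are Creb3l1 and Bbc3.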

How the data were processed

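Poly(A)-selected, PCR-amplified mRNA was sequenced in 12 MPC5 libraries, 6 SPARCoe and 6 vector, grouped by the labels. The authors deposited whole-number counts per Ensembl gene, and beside them FPKM values. The submitters' processing notes name HISAT2 and Bowtie2, SAMtools and Picard, featureCounts, and edgeR, with no version or role. The sources used here do not give the authors' genome build, annotation or strand setting, so positions from GENCODE M21 and RefSeq (GRCm38) are not the authors' coordinates. Each deposited FPKM value equalled the count over the library total and 1 whole length per gene, constant over libraries for all 31742 genes with a value. Of deposited counts of 1 or 2, 56.67% were 2, so many read pairs appear to be counted as 2. There are no molecular identifiers, and totals of 33051035 to 47380987 counts per library set a precision for counting error only.

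Symbols matched 55141 of 55487 IDs. The test was edgeR 4.0.16 in R 4.3.3 on the deposited counts: TMM factors, filterByExpr (15734 genes), a robust quasi-likelihood fit of SPARCoe against vector on all 12 libraries, two-sided, with Benjamini-Hochberg adjusted p under 0.05 over all tested genes. Standard errors were taken as the log2 fold change over the root of F, and 95% intervals came from the same fit. Single genes were also tested by an exact permutation of log2 CPM (prior count 2) over 924 assignments. The fit was tested on simulated data. Other settings tried were factors by RLE or by the upper quartile, the fit without Sparc, no filter, a filter of 1 CPM in 6 libraries, DESeq2 1.42.0, limma-voom with quality weights (limma 3.58.1), a replicate block, limma trend on log2(FPKM + 1) with genes averaging at least 1 FPKM or with all genes, the same with a pseudocount of 0.1 FPKM, glmTreat against 1.2-fold, and each library left out.

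The 10 genes, the 7 pathway lists, the 5 marker lists and the tests were chosen with earlier results of these data known, so no list gives independent support. The rule for names took Sparc, the 10 genes, up to 4 called members of each list with the smallest adjusted p (the 2 most abundant where none was called), the 5 genes closest to Hspa5, and the 2 most abundant markers of each list. Of the other genes, Ero1a, Edem1, Ern1, Eif2ak3, Atf6, Atf6b, Ddit3, Ppp1r15a, Trib3, Ddit4, Slc7a11, Psat1, Cebpg, Chac1, Asns, Hyou1, Sdf2l1, Manf, Creld2, Yy1, Tnfrsf10b, Acacb, Adcy3, Lgalsl, Krtcap2, Gm46430, Hspa8, Hsp90aa1, Hsp90ab1, Hspb1, Hspb8 and further called markers were named after their values were seen. The same holds for Hspa1b, Slc7a5, Slc3a2, Atf5, Vldlr, Ppp1r15b, Phgdh, Nupr1 and Eif4ebp1. The markers called by name in the rule were Nes and Actn4, Lrp2 and Pax8, Acta2 and Col1a1, Kdr and Tek, and Csf1r and Cd14, whose values are in the closing section. Not every gene taken by this rule is reported here. Protein sequences were not used here.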

Additional observations from a re-analysis of the deposited data

Results flagged for a closer look

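In the 22 groups of 6 libraries tested (Sparc and the 10 genes in each group), 1 library stood apart from the others of its group. Dnajb11 was at 116.3 CPM in vector replicate 1, against 109.5 CPM in the next highest and 106.2 CPM in the lowest vector library. That gap was 0.674 of the group's whole range and was above Dixon's 95% critical value for 6 libraries. Chance marks about 1 in 20 groups, so 1 of 22 is near what it gives. Vector replicate 1 was also the highest vector library for 7 other genes of the 10; without it Dnajb11 had a log2 fold change of 0.02 and was not called (edgeR adjusted p = 0.634).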

How the results depend on the processing

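Over the 24 alternatives, of which 12 left out 1 library, 0 of the 10 genes were called higher. The count called lower, 1 as reported, was 0 with glmTreat against 1.2-fold, 2 without a filter on low counts (Herpud1, adjusted p = 0.0452) and 1 to 2 with 1 library left out. Xbp1 was called in 23 of 24, with log2 fold changes from -0.14 to -0.10, and only glmTreat lost it. Uncalled values crossed 0 in 8 alternatives for Hspa5, 3 for Pdia3 and 12 for Dnajb11. Genes called over the whole table numbered 4571, 992 with glmTreat and 3723 to 5344 otherwise. Of the log2 fold changes followed over the alternatives, glmTreat lost 48 calls, and none reversed. The cause of these shifts was not tested, except that glmTreat asks for a larger change.

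With the replicate block, 0 of the 10 were called higher and 1 lower (Xbp1, -0.13, adjusted p = 0.0023), and 4663 genes in all. Same-numbered libraries did not deviate together over all tested genes (correlations of -0.011 to 0.015, and no library correlated best with its own number). No pairing by number was thus seen. The check takes in all tested genes, scarce ones among them, so it could miss a weak pairing.

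Outside glmTreat, members called lower numbered 9 to 14 among other folding enzymes, 10 to 13 in the translocon list, 10 to 12 in transport and 3 to 8 in degradation, and members called higher 8 to 11 in the PERK and ATF4 arm and 6 to 10 among heat shock proteins. With glmTreat, 0 were called lower in these 4 lists, 4 higher in the PERK and ATF4 arm and 0 higher among heat shock proteins. Depth limits Dnajb9 most, with 2600 counts in SPARCoe and 2338 in vector and the widest interval of the 10.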

Other observations

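Among the markers of kidney cell types, Lrp2 (megalin, the endocytic receptor of proximal tubule) was at 192.6 ± 5.79 CPM in SPARCoe and 257.9 ± 1.56 CPM in vector (SD, n = 6 each; log2 fold change -0.42 ± 0.021 SE, edgeR adjusted p = 1.69e-20), and the transcription factor Pax8 fell by 0.28 on the log2 scale. Acta2, the smooth muscle actin of activated mesangial cells, fell by 0.66, and Col1a1 by 0.18. Of the podocyte markers, Nes (nestin) fell by 0.19 and Actn4, an actin crosslinker of foot processes, by 0.13. Leukocyte markers diverged: Cd14 rose 1.52-fold to 8.834 ± 0.917 CPM in SPARCoe, against 5.828 ± 0.586 CPM in vector, while Csf1r fell to 4.581 ± 0.504 CPM in SPARCoe, against 8.296 ± 0.833 CPM in vector. Among endothelial markers, Kdr was lower (1.5 ± 0.296 CPM in SPARCoe, 2.020 ± 0.278 CPM in vector; edgeR adjusted p = 0.0358), a call lost in 8 alternatives beside glmTreat. Tek, the angiopoietin receptor, was higher at 0.514 ± 0.137 CPM in SPARCoe, against 0.160 ± 0.168 CPM in vector (edgeR adjusted p = 0.00143), with overlapping groups and 130 counts in SPARCoe and 39 in vector.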
